A study of Mus musculus with 6 samples.

Results

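The regulators of G1 and S phase entry were examined as 10 genes of the deposited expression table, *Ccnd1*, *Ccnd2*, *Ccnd3*, *Ccne1*, *Ccne2*, *Cdk4*, *Cdk6*, *E2f1*, *E2f2* and *Rbl1*, taken by gene symbol from its 17001 rows. All 10 were found. The table comes from cultures of primary preosteoblasts, the precursors of bone-forming osteoblasts. The donors were pups aged 3 days, the tissue was calvarial bone opened with enzymes, and the medium was α-MEM with serum. The 3 control libraries carry the genotype NELL2 fx/fx, in which both *Nell2* alleles are floxed and no Cre is present. The 3 cKO libraries carry the genotype Col1-cre; NELL2 fx/fx, the same floxed alleles with Cre recombinase under a *Col1a1* promoter fragment, so that recombination is limited to cells in which that fragment is active. The labels do not say whether a library is 1 pup or a pool, so the tests measure the spread between these libraries, which may be technical in part. Expression is given in FPKM, a fragment number scaled to transcript length and library size, so that levels can be compared between genes. FPKM carries no read numbers, and only 1 to 8 low rows per pair of libraries could be compared for their steps, so the sequencing depth of the libraries was not recovered.

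Cells decide in G1 whether to divide. D-type cyclins, which are induced by growth factors, activate the kinases CDK4 and CDK6, and these phosphorylate the pocket proteins of the RB family. Phosphorylated pocket proteins release E2F transcription factors, which switch on E-type cyclins, more E2F and the enzymes of DNA replication, and cyclin E with CDK2 then carries the cell into S phase. In the osteoblast lineage, precursors proliferate before they leave the cycle and lay down matrix.

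The targeted gene was examined first. Control replicates 1, 2 and 3 had 3.17, 2.59 and 1.88 FPKM of *Nell2*, and the libraries labelled cKO replicates 1, 2 and 3 had 5.64, 1.61 and 5.74. Deletion is therefore not visible in this value, which does not separate the floxed exons from the rest of the transcript (log2 fold change 0.48, adjusted p = 0.591 from limma). All directions below follow the labels. The labelled cell type was present, with *Col1a1*, the main bone collagen chain, at 8299.5 ± 264 FPKM (SD, n = 3) in control and 8245.7 ± 145 in cKO libraries, and *Runx2*, the master regulator of the lineage, at 13.6 ± 1.36 and 11.6 ± 0.72.

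The D-type and E-type cyclins, *E2f1*, *E2f2* and *Rbl1* all had lower mean FPKM in the libraries labelled cKO, while the kinases *Cdk4* and *Cdk6* had nearly equal means. The largest differences were in the E-type cyclins, with cKO means of 59.9% (*Ccne1*) and 60.5% (*Ccne2*) of the control means, and in *E2f2*, at 60.2%. Of the 10 genes, 9 passed a filter on low values (3 or more libraries with 1 FPKM or more) and were tested with all other passing rows, 11590 in number, by limma's moderated test on log2(FPKM + 1). *E2f2* stayed under an FPKM of 1 in every library and was not tested. With Benjamini-Hochberg adjustment over the 11590 genes, 0 of the 9 had an adjusted p under 0.05, as had 0 (0%) of all tested genes, among which 1521 (13.1%) had an unadjusted p under 0.05. All 9 had a log2 fold change below 0, as had 55.8% of all tested genes. At an unadjusted p under 0.05, 4 of the 9 were lower (*Ccnd3*, *Ccne1*, *Ccne2* and *Rbl1*), against 7.76% of all tested genes, and 0 were higher, against 5.37%. For 3 of the 9 (*Ccnd3*, *Ccne1* and *Rbl1*), all cKO libraries lay below all control libraries, against 11.8% of all tested genes, and for 0 they lay above, against 6.51%. The median log2 fold change of the 9 genes was -0.26, beside -0.02 for all tested genes.

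**Figure D1:**
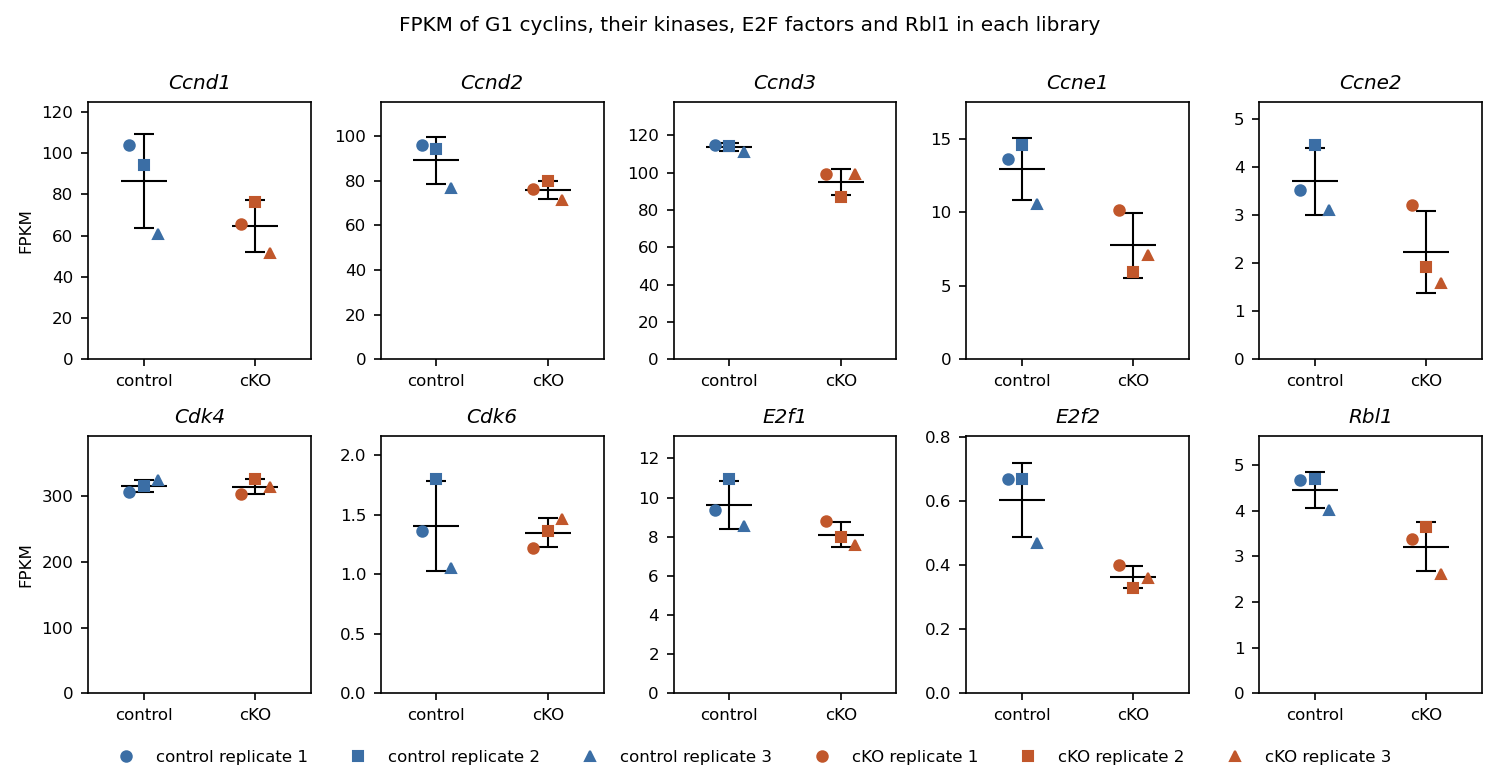
FPKM (vertical axes, each from 0) of the 10 genes in the 3 control (blue) and 3 cKO (orange) libraries, with the symbol marking the replicate number, the long bar the mean and the error bars the SD. *Ccnd3*, *Ccne1*, *E2f2* and *Rbl1* separate the groups without overlap, *Cdk4* lies between 303.5 and 326.26 in every library, and control replicate 3 is the lowest control library for every gene except *Cdk4*.

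The levels of the 10 genes spanned a wide range. *Cdk4* was the most abundant, with a mean of 315 FPKM over the 6 libraries, above 98.4% of the rows of the table. *Ccnd3* (104), *Ccnd2* (82.4) and *Ccnd1* (75.5) followed, above 93.5% to 95.3% of the rows. *Ccne1* (10.4), *E2f1* (8.86), *Rbl1* (3.84), *Ccne2* (2.96), *Cdk6* (1.38) and *E2f2* (0.48) were far lower. In this order, each gene exceeded the next in all 6 libraries, except that *Ccnd2* exceeded *Ccnd1* in 4 and *Ccne1* exceeded *E2f1* in 4, so the order within these pairs was not settled by the libraries.

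D-type cyclins are the subunits through which growth signals reach the cycle, and all 3 were expressed. The *Ccnd1* gene occupies 144929931 to 144939925 of chromosome 7, minus strand, in GRCm38 by GENCODE M21, the build and release used for each gene here. Control replicates 1, 2 and 3 had 104.26, 94.37 and 60.84 FPKM of *Ccnd1*, and cKO replicates 1, 2 and 3 had 65.56, 76.59 and 51.65. Control replicate 3 fell within the cKO range, and the difference did not exceed the spread between libraries (log2 fold change -0.40 with a standard error of 0.22, adjusted p = 0.478 from limma). The log2 fold change was -0.63 without control replicate 3, and -0.25 without either control replicate 1 or cKO replicate 3.

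*Ccnd2*, on chromosome 6 from 127125162 to 127152193, had an FPKM of 96.13, 94.19 and 76.66 in control and 76.22, 79.66 and 71.45 in cKO replicates. Here too control replicate 3 lay within the cKO range, below cKO replicate 2, and the log2 fold change was -0.22 with a standard error of 0.10 (adjusted p = 0.399 from limma). *Ccnd1* and *Ccnd2* were also the members whose libraries ordered by Y-linked expression, a sign of male pups, which was present in control replicate 3 and cKO replicates 1 and 3 (summed FPKM of *Ddx3y*, *Eif2s3y*, *Kdm5d* and *Uty* from 49.6 to 54.7) and nearly absent from the others (0.01 to 0.29). For both genes, the 3 libraries with Y-linked expression were below the 3 without it. When Y-linked expression entered the fit as a covariate, marked high or low per library, the log2 fold change was -0.22 for *Ccnd1* and -0.15 for *Ccnd2*. Since 1 control and 2 cKO libraries carried Y-linked expression, the difference between the groups and that between the sexes of the pups overlap in part. Each group held libraries with and without it, so the 3 libraries of a group were not all repeats of the same sample. Whether each was 1 pup or a pool is still not known.

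*Ccnd3*, on chromosome 17 from 47505051 to 47599691 on the plus strand, had the narrowest control spread of the 3. It was at 114.98, 114.45 and 111.13 FPKM in control and 99.05, 87.08 and 99.09 in cKO replicates. All control libraries lay above all cKO libraries, with a cKO mean of 83.8% of the control mean and a log2 fold change of -0.26 (95% interval -0.43 to -0.09, adjusted p = 0.312 from limma). The 3 D-type cyclins summed to 315.37, 303.01 and 248.63 FPKM in control and 240.83, 243.33 and 222.19 in cKO replicates, so that the sum was higher in every control library than in any cKO library. *Ccnd1* made up 24.5% to 33.1% of this sum in control and 23.2% to 31.5% in cKO libraries.

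The kinase partners stood apart from their cyclins. CDK4 and CDK6 carry out the same step, and *Cdk4*, on chromosome 10 from 127063534 to 127067920, outweighed *Cdk6*, on chromosome 5 from 3341485 to 3531008, by 175-fold to 308-fold in FPKM across the libraries. The FPKM of *Cdk4* was 305.86, 315.05 and 323.77 in control and 303.5, 326.26 and 313.6 in cKO replicates. The groups overlapped fully, and the 95% interval of the log2 fold change ran from -0.15 to 0.14 around a value of -0.0023 (adjusted p = 0.989 from limma). *Cdk6* was at 1.36, 1.8 and 1.05 in control and 1.22, 1.36 and 1.46 in cKO replicates, with the cKO libraries inside the control range (log2 fold change -0.02, 95% interval -0.30 to 0.25, adjusted p = 0.948 from limma). The sign of both kinases turned under other settings, as given in the closing section.

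The E-type cyclins, which activate CDK2 at the entry to S phase, differed most among the tested members. *Ccne1*, on chromosome 7 from 38097984 to 38107534, had an FPKM of 13.63, 14.63 and 10.58 in control and 10.2, 5.96 and 7.1 in cKO replicates. The groups did not overlap, although control replicate 3 and cKO replicate 1 lay close together (log2 fold change -0.69 with a standard error of 0.19, adjusted p = 0.312 from limma). *Ccne2*, on chromosome 4 from 11191351 to 11204779, was at 3.52, 4.46 and 3.1 in control and 3.2, 1.91 and 1.59 in cKO replicates. Its groups overlapped by cKO replicate 1, which was above control replicate 3, and its log2 fold change was -0.56 with a standard error of 0.19 (adjusted p = 0.321 from limma). Without cKO replicate 1, *Ccne1* (log2 fold change -0.88, adjusted p = 0.0388) and *Ccne2* (-0.76, adjusted p = 0.0439) were the only members to pass the adjusted threshold in limma, among 334 genes that did so in that fit. *Ccne2* had an unadjusted p of 0.077 in limma without control replicate 2 or without cKO replicate 3, and of 0.068 without cKO replicate 2. Its log2 fold change in these fits ran from -0.50 to -0.41.

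**Figure D2:**
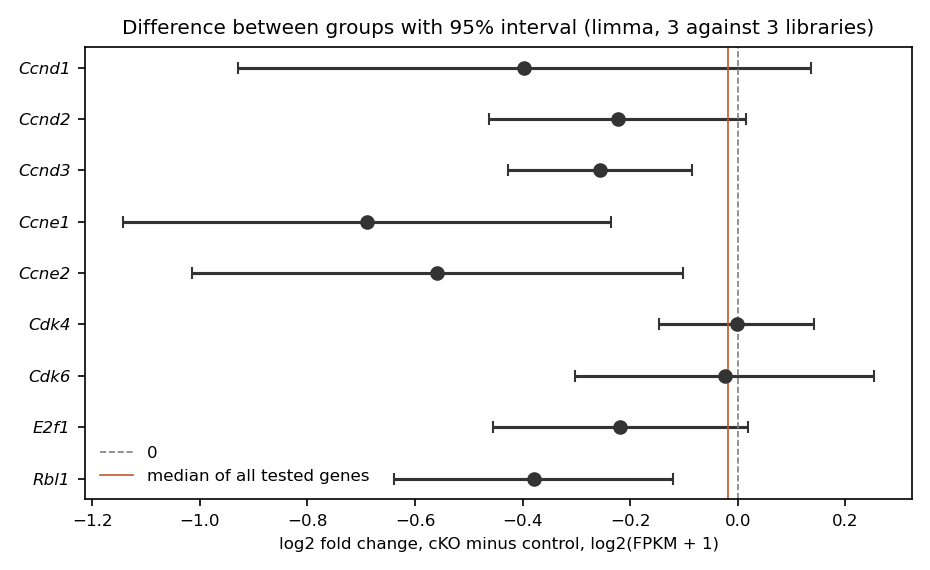
Log2 fold change of the 9 tested genes, cKO minus control on the log2(FPKM + 1) scale, with points for limma's estimate and bars for its 95% interval, unadjusted for the number of genes. The intervals of *Ccnd3*, *Ccne1*, *Ccne2* and *Rbl1* lie below 0, and those of *Ccnd1*, *Ccnd2*, *E2f1*, *Cdk4* and *Cdk6* include it.

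*E2f1* encodes an activating E2F that is itself switched on by E2F at the start of S phase. The gene lies on chromosome 2 from 154559407 to 154569892, and its FPKM was 9.37, 10.96 and 8.54 in control and 8.79, 7.96 and 7.56 in cKO replicates. cKO replicate 1 lay above control replicate 3, and the log2 fold change was -0.22 with a standard error of 0.10 (adjusted p = 0.403 from limma), or -0.13 without control replicate 2. *E2f2*, another activating E2F, on chromosome 4 from 136172394 to 136196057, was at 0.67, 0.67 and 0.47 in control and 0.4, 0.33 and 0.36 in cKO replicates. All cKO values were below all control values, at levels where the 2 decimals of the table are coarse. When the filter on low values was dropped, its log2 fold change was -0.23 (adjusted p = 0.380 from limma).

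*Rbl1* encodes p107, a pocket protein of the RB family that binds repressive E2F and is itself made in proliferating cells. The gene is on the minus strand of chromosome 2 between 157145893 and 157204534. It was at 4.67, 4.7 and 4.01 FPKM in control and 3.39, 3.64 and 2.61 in cKO replicates. The groups did not overlap, the cKO mean was 72% of the control mean, and the log2 fold change was -0.38 (95% interval -0.64 to -0.12, adjusted p = 0.312 from limma).

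The promoters of the members were searched for E2F motifs because several of these genes are known E2F targets and differed in the same direction here. Windows from 250 bases before to 50 bases after the start site came from RefSeq (GRCm38.p6), which gave 9 windows for 7 members (*Ccnd3*, *Ccne1*, *Cdk4*, *Cdk6*, *E2f1*, *E2f2* and *Rbl1*). The 4 forms TTTCCCGC, TTTCGCGC, TTTGCCGC and TTTGGCGC were searched on both strands, and matches may overlap. A match was present in 2 of the 9 windows, for *Rbl1* and *E2f2*, against 2.26% of all 32851 windows and 4% of the 11850 windows of tested genes. In *Rbl1* the match TTTCGCGC began 18 bases before the start, and in *E2f2* the match TTTGGCGC began 39 bases after it. The starts are those of RefSeq, and the *E2f2* window ends upstream of the GENCODE start given above, so its match is before that start. The windows of *E2f1* (chr2:154569377-154569676, minus strand) and *Cdk6* (chr5:3343643-3343942) lie inside the GENCODE genes, downstream of their GENCODE starts. The sequence around those starts was not searched, so the lack of a match for these genes covers the RefSeq windows only. The window of *Ccne1*, the tested member with the largest difference, held none of the 4 forms. A match is a description of these letters and not a site in use. The 3 windows are shown 5′ to 3′ in the direction of the gene with matches in capitals, *Rbl1* at chr2:157204485-157204784 on the minus strand, *E2f2* at chr4:136172024-136172323 on the plus strand and *Ccne1* at chr7:38107441-38107740 on the minus strand.
Rbl1: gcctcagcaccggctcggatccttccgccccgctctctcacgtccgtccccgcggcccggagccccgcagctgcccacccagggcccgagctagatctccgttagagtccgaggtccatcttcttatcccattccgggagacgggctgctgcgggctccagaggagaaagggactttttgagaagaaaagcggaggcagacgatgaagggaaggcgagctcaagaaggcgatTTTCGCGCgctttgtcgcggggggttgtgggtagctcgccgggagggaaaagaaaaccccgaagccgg
E2f2: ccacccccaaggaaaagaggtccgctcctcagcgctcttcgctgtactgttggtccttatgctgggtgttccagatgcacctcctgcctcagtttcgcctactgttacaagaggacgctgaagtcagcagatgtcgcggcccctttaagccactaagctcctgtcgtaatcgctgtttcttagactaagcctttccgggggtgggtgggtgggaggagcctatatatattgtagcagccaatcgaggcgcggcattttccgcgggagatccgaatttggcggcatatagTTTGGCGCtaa
Ccne1: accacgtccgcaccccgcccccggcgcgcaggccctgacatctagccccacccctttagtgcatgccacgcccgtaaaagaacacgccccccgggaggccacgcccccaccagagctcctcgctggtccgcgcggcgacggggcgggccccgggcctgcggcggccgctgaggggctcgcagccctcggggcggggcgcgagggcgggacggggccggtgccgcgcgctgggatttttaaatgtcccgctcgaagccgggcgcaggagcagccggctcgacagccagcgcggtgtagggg

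Between libraries, the members other than the kinases tended to vary together, as a description over 6 libraries that include the group difference and share each library's preparation. Pearson's r of log2(FPKM + 1) was 0.97 between *Ccnd1* and *Ccnd2*, 0.94 between *Ccne1* and *Ccne2* and 0.94 between *Ccne2* and *E2f1*, but 0.42 between *Ccnd1* and *Ccnd3*. *Cdk4* had an r between -0.48 and -0.01 with each of the other 8. The control libraries were not alike, since control replicate 3 was the lowest control for 8 of the 9 tested members. The median over the tested members of log2(FPKM + 1), centred on each gene's mean, was 0.23, 0.25 and 0.04 in control and -0.07, -0.04 and -0.20 in cKO replicates 1, 2 and 3. Without control replicate 3, 7 of the 9 members had an unadjusted p under 0.05 and 7 did not overlap, all lower, the kinases being the exception in each count. In that fit 7.38% of all tested genes were lower at an unadjusted p under 0.05 and 19.5% were lower without overlap, which is easier to reach with 2 libraries in a group. Without cKO replicate 1, both counts were 5, beside 12% and 24.3% of all tested genes. When any 1 of the other 4 libraries was left out, 3 or 4 members were lower at an unadjusted p under 0.05 and 3 or 4 did not overlap, beside 3.89% to 4.94% and 14.2% to 17.9% of all tested genes.

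The genes that act on this switch were examined in lists. Of the 7 inhibitors of cyclin-dependent kinases, all tested, 5 had a log2 fold change below 0 and 2 above, 3 were lower and 1 higher at an unadjusted p under 0.05 (7.76% and 5.37% of all tested genes), and the median was -0.18. The count of 3 was 1 without control replicate 2, cKO replicate 2 or cKO replicate 3, and with the Y-linked covariate in the fit. *Cdkn1a*, which encodes p21, a p53 target, was at 133.53, 151.8 and 75.2 FPKM in control and 87.43, 70.99 and 67.33 in cKO replicates. Control replicate 3 again lay within the cKO range (log2 fold change -0.62, adjusted p = 0.377 from limma). *Cdkn2d*, an inhibitor of CDK4 and CDK6, was at 15.36, 14.84 and 13.26 in control and 11.35, 10.77 and 10 in cKO replicates, without overlap (-0.40, adjusted p = 0.312), and *Cdkn2c* of the same family had a log2 fold change of -0.28 (adjusted p = 0.356). *Cdkn1c*, or p57, the most abundant inhibitor over the 6 libraries together, though below *Cdkn1a* (120.2 FPKM) in the control mean, had means of 114 ± 44.4 and 134 ± 35.6 FPKM (SD, n = 3). *Cdkn1b*, or p27, chosen after its values were seen as the only inhibitor higher at an unadjusted p under 0.05, was at 19.61, 19.66 and 23.84 in control and 23.36, 26 and 26.41 in cKO replicates (log2 fold change 0.26, adjusted p = 0.342 from limma).

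Among the other pocket proteins, E2F and DP factors, all 10 were tested and 8 were below 0, beside 55.8% of all tested genes. At an unadjusted p under 0.05, 3 were lower and 1 higher, beside 7.76% and 5.37%. *E2f7* and *E2f8*, the atypical repressors that E2F induces, had log2 fold changes of -0.47 (adjusted p = 0.315 from limma) and -0.50 (adjusted p = 0.312), both lower without overlap between groups, as was *Tfdp1*, so that 3 of the 10 were lower in this way, beside 11.8% of all tested genes. *Tfdp1*, the DP partner with which E2F binds DNA, was the most abundant at 47.5 ± 2.42 FPKM (SD, n = 3) in control and 38.8 ± 2.29 in cKO libraries (-0.29, adjusted p = 0.312). *E2f5*, which works with p130 in resting cells, was the one gene of this list higher without overlap, beside 6.51% of all tested genes, at 5.74, 6.18 and 5.85 FPKM in control and 6.92, 6.78 and 6.67 in cKO replicates (0.17, adjusted p = 0.321). The median of this list was -0.08.

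Of the 8 genes for CDK2 and its regulators, 6 were below 0 and 4 were lower at an unadjusted p under 0.05, beside 7.76% of all tested genes, with a median of -0.18. These 4 were *Cks1b* (log2 fold change -0.34), which helps SKP2 to target p27, *Cdc25a* (-0.28), the phosphatase that activates CDK2, *Skp2* (-0.28), and *Cdk2* (-0.27) itself, with adjusted p-values from 0.312 to 0.374 in limma. *Cdk2* was at 17.36, 19.92 and 19.55 FPKM in control and 16.83, 15.54 and 14.27 in cKO replicates, without overlap. The count of 4 was 2 without control replicate 2, control replicate 3 or cKO replicate 2, and 1 without cKO replicate 3, and it was also 2 with the replicate number as a block. Of the 6 subunits of the DREAM and MYB-MuvB complexes, through which pocket proteins repress cell cycle genes in resting cells and B-MYB activates them in dividing ones, *Mybl2* alone was lower at an unadjusted p under 0.05 (-0.42, adjusted p = 0.312), with *Lin9* at -0.24, *Lin54* at -0.14 and *Lin52* at 0.08. *Rbbp4*, the most abundant, was at -0.08, and the median was -0.11. The count of 1 in this list was 2 without control replicate 1 or without cKO replicate 1.

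Among the 6 lists around the switch, the genes of S phase and of G2 and mitosis had the lowest medians. Of 24 genes that E2F induces for S phase, 23 were below 0 and 20 were lower at an unadjusted p under 0.05, beside the 7.76% of all tested genes, with a median of -0.45. *Tk1* and *Rrm2*, which supply nucleotides, had log2 fold changes of -0.88 (adjusted p = 0.312 from limma) and -0.81 (adjusted p = 0.312), *Gmnn*, an inhibitor of origin licensing, -0.83 (adjusted p = 0.312), and *Mcm5*, a helicase subunit, -0.65 (adjusted p = 0.312). *Pcna*, the sliding clamp and the most abundant, was at 81 ± 10.6 FPKM (SD, n = 3) in control and 67.9 ± 6.34 in cKO libraries, and *Cdt1*, named after its values were seen, was the only one above 0, at 0.09. Of 12 genes of G2 and mitosis, all 12 were lower at an unadjusted p under 0.05, with a median of -0.59, *Plk1* at -0.77, *Mki67* at -0.66, *Cdk1* and *Aurkb* at -0.64 and the most abundant, *Cdc20*, at -0.56. The count of 12 was 4 without control replicate 2, cKO replicate 2 or cKO replicate 3 and 7 without control replicate 1. With all 6 libraries, it was 8 with the Y-linked covariate and 8 without the filter on low values. The count of 20 was 13 without control replicate 2. The groups did not overlap, with cKO lower, for 17 of the 24 and 5 of the 12, beside 11.8% of all tested genes. In RNA from whole cultures, fewer dividing cells and less of these transcripts per dividing cell cannot be told apart.

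**Figure D3:**
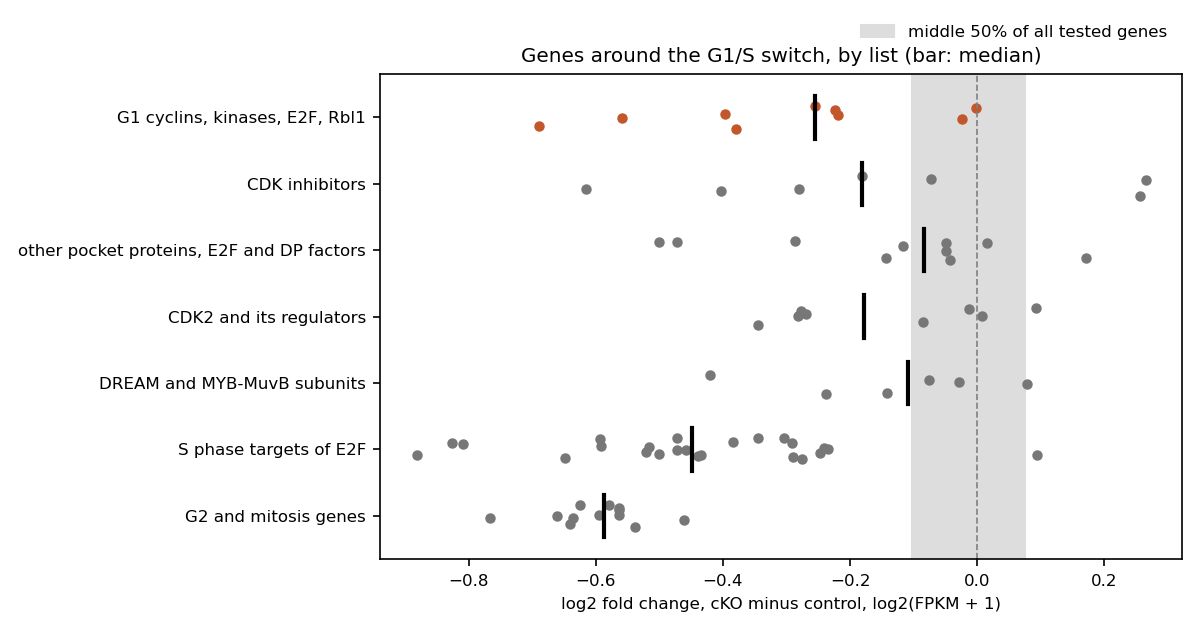
Log2 fold change of each tested gene (points), cKO minus control on the log2(FPKM + 1) scale, for the G1 cyclins, kinases, *E2f1* and *Rbl1* (orange) and for 6 lists of genes around the G1/S switch (grey), with a bar at each median and the middle 50% of all tested genes shaded (-0.10 to 0.07). The S phase and the G2 and mitosis lists have the lowest medians, -0.45 and -0.59, and the pocket protein, E2F and DP list the highest, -0.08.

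The libraries of one group differed along the same line for these downstream lists. The centred median of the G2 and mitosis genes was 0.27, 0.53 and 0.15 in control and 0.17, -0.49 and -0.52 in cKO replicates 1, 2 and 3, so that cKO replicate 1 lay above control replicate 3. For the S phase genes it was 0.17, 0.36 and 0.14 in control and 0.01, -0.25 and -0.40 in cKO replicates. The E-type cyclins followed this pattern, with *Ccne1* and *Ccne2* highest among cKO libraries in replicate 1, whereas *Ccnd1* and *Ccnd2* were highest among them in replicate 2.

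**Figure D4:**
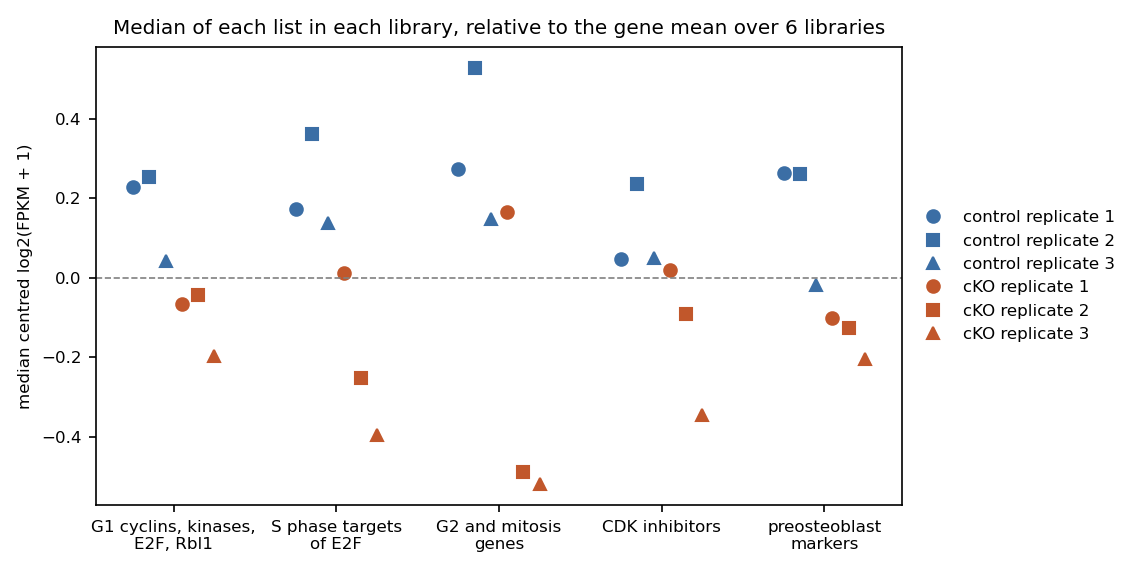
Median of log2(FPKM + 1), each gene centred on its mean over the 6 libraries, for 5 lists (horizontal axis) in control (blue) and cKO (orange) libraries, with the symbol marking the replicate number. For the G1 cyclins, kinases, *E2f1* and *Rbl1* all control libraries lie above all cKO libraries, from 0.04 upward against -0.04 downward, and for the G2 and mitosis genes cKO replicate 1 (0.17) lies above control replicate 3 (0.15).

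Markers of other cells were read beside these differences. The 5 epithelial markers summed to 0.46, 3.61 and 13.2 FPKM in control and 42.59, 35.55 and 16.98 in cKO replicates, mostly *Krt18* and *Krt8*. *Krt8* and *Krt18* were higher at an unadjusted p under 0.05, beside 5.37% of all tested genes, with adjusted p-values of 0.312 in limma. *Epcam* passed the filter only through the cKO libraries, so it had to differ and is given by its values of 0, 0.15 and 0.47 FPKM in control and 1.37, 1.58 and 1.21 in cKO replicates. *Krt5* was listed at 0 in control replicates 1 and 3. The 8 macrophage markers summed to 62.76, 36.21 and 99.87 FPKM in control and 49.76, 74.09 and 82.49 in cKO replicates, mostly *Lyz2*, and 0 of the 6 tested had an unadjusted p under 0.05 in limma. Their log2 fold changes were above 0 for 5, with *Cd68* at 0.33, *C1qa* at 0.32, *C1qb* at 0.30, *Tyrobp* at 0.29 and *Lyz2* at 0.05. The 6 muscle markers summed to between 29.8 and 55 FPKM, mostly *Acta1*, with *Myf5* listed at 0 in 5 libraries and 0 of 4 tested at an unadjusted p under 0.05 (*Des* at 0.28, *Acta1* at 0.16, *Myog* at -0.12 and *Myh3* at 0.06 in log2 fold change). The 5 endothelial markers summed to at most 3.87 FPKM in any library, with *Cdh5* the most abundant and the only one tested. Of the 8 preosteoblast markers, 6 were below 0 and 2 above, *Spp1* (log2 fold change 0.12) and *Col1a2* (0.04). At an unadjusted p under 0.05, 4 were lower, beside 7.76% of all tested genes, *Ibsp* (log2 fold change -1.27), *Bglap* (-1.15), *Sp7* (-0.48) and *Alpl* (-0.45), each without overlap (11.8% of all tested genes) and each with an adjusted p of 0.312 in limma. The part of these other cells, and of the state of the preosteoblasts, in the differences of the cyclins was not tested.

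Some reads of the members cannot be assigned with certainty, because the use of strand in counting is not given in the sources used here. By GENCODE M21, exons of *Cdk4* share 641 of 3249 bases with *Tspan31* on the opposite strand, *Ccne2* shares 609 of 3495 with *Ints8*, *Ccnd3* shares 361 of 8775 with *Bysl*, and *Ccnd1* shares 1100 of 4709 with LTO1. Exons of *Ccnd2* share 372 and 368 of 9409 bases with the antisense genes *Gm43126* and *9330179D12Rik*, and those of *Cdk6* share 368 of 13989 with *Gm17590*. *Tspan31* had a mean of 86.8 FPKM, *Ints8* 12.1 and *Bysl* 9.38, so *Ints8* was more abundant than the cyclin it overlaps. No row was found under *Lto1* or *Oraov1*, so the level of LTO1 was not compared with that of *Ccnd1*. *Ccnd3* also has a processed pseudogene, *Ccnd3-ps*. *Ccne1*, *E2f1*, *E2f2* and *Rbl1* shared no exonic base with another annotated gene.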

How the data were processed

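Poly(A) RNA of 3 control and 3 cKO cultures was sequenced as paired-end reads. The authors deposited FPKM with 2 decimals, 1 row per gene symbol. The submitters' processing notes name HISAT2, DESeq and GRCm38, and the program that gave FPKM and the annotation release are not given in the sources used here. No count test was run on this unit, and no detection limit was set. All 6 columns were used, and their sums lay between 573307 and 606428.

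Groups and replicate numbers came from the sample titles. Rows with 3 or more libraries at 1 FPKM or above (11590 of 17001) were compared as log2(FPKM + 1) with limma 3.58.1 in R 4.3.3 (lmFit, eBayes without trend, Benjamini-Hochberg adjustment over all tested rows). Fold changes on this scale understate those of low genes. The fit was tested on simulated data. Alternatives were the pseudocount, the filter, a variance trend, 2 scalings, a replicate block, the Y-linked covariate and fits that left out 1 library. Lists were described by counts and medians.

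The members, the gene lists and the settings were chosen with earlier results of these data known. Named are the 10 members, *Nell2*, the Y-linked genes, of each list the 4 tested genes with the largest log2 fold change in size and its most abundant gene, and the 3 genes most like the leading member of each role. *Cdkn1b* and *Cdt1* were chosen after their values were seen, *Runx2*, *Spp1*, *Col1a2*, *Krt5* and *Myf5* are given as markers of their cell types, and genes that share exons with members are named for that. Positions and exons came from GENCODE M21 (GRCm38), promoters from RefSeq (GRCm38.p6). The annotation used by the authors may differ.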

Additional observations from a re-analysis of the deposited data

How the results depend on the processing

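With the main setting, 0 genes had an adjusted p under 0.05 in limma (1521 at an unadjusted p under 0.05), and 4 of 9 members had an unadjusted p under 0.05 and 3 did not overlap. Across the other settings with all 6 libraries (pseudocounts, filters, trend, scalings, replicate block, Y-linked covariate) these counts were 0, 4 to 6 and 3 to 4. With 1 library left out they ran from 0 to 334, from 3 to 7 and from 3 to 7, the 334 without cKO replicate 1 and both 7s without control replicate 3. The 1521 genes at an unadjusted p under 0.05 ran from 852 without cKO replicate 3 to 2459 without cKO replicate 1, with 926 to 956 without control replicate 1, control replicate 2 or cKO replicate 2 and 1586 without control replicate 3. An arm of 2 libraries then shares its spread with the other arm. The log2 fold changes of the 7 tested members other than the kinases stayed below 0 in all 15 alternatives, *Ccnd1* from -0.63 without control replicate 3 to -0.22 with the Y-linked covariate. *Cdk4* turned to 0.019 with median-of-ratios scaling, 0.033 with quantile normalization and 0.0011 with the Y-linked covariate, and ran from -0.029 to 0.023 over the fits without 1 library. *Cdk6* turned to 0.033 with the Y-linked covariate and ran from -0.13 to 0.092 over those fits, and the cause was not tested. The median of all tested genes stayed between -0.03 and 0.0016. For the lists, settings added after the data were seen left 13 to 23 of the 24 S phase genes and 4 to 12 of the 12 G2 and mitosis genes lower at an unadjusted p under 0.05. Without cKO replicate 1, 11 genes of each of these lists also had an adjusted p under 0.05, as had 2 of 10 other pocket protein, E2F and DP genes, 1 of 6 DREAM and MYB-MuvB genes, 0 CDK inhibitors, 0 CDK2 regulators and 334 of all 11522 genes tested in that fit.

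Whether libraries with the same number share a litter or a batch is not given by the labels. Their deviations from the mean of the group had a Pearson's r of 0.031, -0.17 and 0.21 for replicates 1, 2 and 3. Pairs with unlike numbers ran from -0.272 to 0.275. With 3 libraries per group, these values cannot settle whether the numbers mark pairs. With the replicate block, 6 of 9 members had an unadjusted p under 0.05 (*Ccnd1* and *Ccnd2* besides the 4), as had 1465 of all 11590 tested genes, and 0 genes had an adjusted p under 0.05. FPKM hides the depth, so the counting error of low members such as *E2f2* and *Cdk6* is unknown.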

Other observations

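For the most abundant member of each role, the 3 tested genes with the highest Pearson's r of log2(FPKM + 1) across the 6 libraries were found, as a description of a search over 11590 genes in few libraries. For *Ccne1* these were *Copg1* (r = 0.998), *Lrp4* (0.997) and *Kifc1* (0.996), of which *Kifc1*, a mitotic kinesin, was at 12.55, 14.48 and 9.51 FPKM in control and 9.65, 5.57 and 6.34 in cKO replicates, close to *Ccne1* in level and in order of the libraries. For *Ccnd3* they were *Kctd14* (0.995), *Dhx8* (0.988) and *Ankrd26* (0.987), and for *E2f1* they were *Kctd7* (0.997), *Me1* (0.994) and *Ubtd1* (0.994). For *Cdk4* they were *Nae1* (0.992), *Magoh* (0.985) and *Eci2* (0.985), each with a log2 fold change between 0.0036 and 0.013.

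E2F motifs were also counted in the promoter windows of the listed genes, as a description. At least 1 of the 4 forms was present for 9 of 20 S phase genes with a window (45%), for 3 of 7 other pocket protein, E2F and DP genes (42.9%) for 2 of 7 genes of CDK2 and its regulators (28.6%), for 1 of 5 DREAM and MYB-MuvB subunits (20%), for 1 of 6 CDK inhibitors (16.7%) and for 1 of 11 G2 and mitosis genes (9.09%), beside 4.87% of the 9239 tested genes with a window.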
